A study of Mus musculus with 2 samples.

Results

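The genes described here are 10 regulators of the exit from mitosis: the spindle checkpoint genes Mad2l1, Bub1, Bub1b and Ttk, and the genes Cdc20, Fzr1, Ube2c, Fbxo5, Pttg1 and Espl1 that act with or under the anaphase-promoting complex. They were chosen by symbol as a functional set, and all 10 were found among the 32285 genes of both count matrices. Mouse hematopoietic stem cells, labelled as blood, were cultured in suspension with RO-3066 or with DMSO (dimethyl sulfoxide, the vehicle) over 48 h, and transcript 3′ ends were then counted by droplet sequencing. There was 1 library per treatment, RO-3066 and DMSO, so the cells are not replicates, no test was possible, and every comparison below is between these 2 libraries. The labels give neither the target nor the dose of RO-3066, nor the animals' strain, age or number. RO-3306, a similarly named compound, inhibits Cdk1 and holds cells before mitosis. The labels do not settle whether that compound was used.

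The anaphase-promoting complex is a ubiquitin ligase that marks securin and cyclin B for destruction, which frees separase to cut cohesin and lets the sister chromatids part. Until every kinetochore is attached to the spindle, the checkpoint proteins Mad2 and BubR1 hold the activator Cdc20 in an inhibitory complex. From late mitosis into G1 the activator Cdh1, encoded by Fzr1, takes over, and Emi1, encoded by Fbxo5, keeps the complex off during S phase and G2. Megakaryocytes become polyploid by endomitosis, in which cells enter mitosis and leave it without dividing.

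Most of these genes are transcribed in waves of the cell cycle, and their promoters can hold CCAAT boxes and CHR elements, which read TTTGAA in the common form and, in a rarer palindromic form, TTCGAA. The 70 bases before the annotated start (RefSeq, GRCm38.p6) are shown for 5 members with contrasting patterns across cells: a G2 and M gene with a wide range (Ube2c), its closest member across cells (Cdc20), separase (Espl1), a gene that followed S phase histones (Fbxo5) and a gene with little cell cycle variation (Pttg1). Capitals mark a CHR element of either form or a CCAAT box, on either strand.
Ube2c, chr2:164769859-164769928, plus strand: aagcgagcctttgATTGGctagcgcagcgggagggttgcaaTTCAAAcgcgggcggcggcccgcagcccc
Cdc20, chr4:118437344-118437413, minus strand: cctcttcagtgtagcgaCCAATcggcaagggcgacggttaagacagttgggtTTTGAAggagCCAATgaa
Espl1, chr15:102296223-102296292, plus strand: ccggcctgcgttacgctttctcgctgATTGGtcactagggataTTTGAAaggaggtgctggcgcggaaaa
Fbxo5, chr10:5805466-5805535, minus strand: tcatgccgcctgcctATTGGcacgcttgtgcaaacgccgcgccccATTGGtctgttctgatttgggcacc
Pttg1, chr11:43425982-43426051, minus strand: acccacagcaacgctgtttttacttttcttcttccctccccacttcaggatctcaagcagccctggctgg

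Within these 70 bases, Ube2c, Cdc20 and Espl1 each held a TTTGAA together with CCAAT on either strand, Fbxo5 held CCAAT at 2 places without TTTGAA, and Pttg1 held neither motif. The RefSeq starts differ from the ends of the GENCODE gene spans given below. The windows of Pttg1 and Fbxo5 lie wholly inside those spans, past the GENCODE start, and those of Ube2c, Cdc20 and Espl1 run across it. A motif missing from the Pttg1 or Fbxo5 window thus says nothing about the bases before the GENCODE start. In the longer window of 250 bases before to 50 bases after the start, TTTGAA on either strand was present in 6 of 10 members, against 18.1% of 27025 RefSeq promoters. The palindrome TTCGAA was present in 2 of 10 members, against 1.57% of promoters, and CCAAT on either strand in 8 of 10, against 37.9%. In Bub1b, Ttk and Fbxo5 the TTTGAA lay after the start. Such matches describe the letters of these windows only.

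All 10 members are annotated as protein-coding genes (mm10, GENCODE vM21). Bub1b (chr2:118598211-118641591), Bub1 (chr2:127801122-127831865) and Ube2c (chr2:164769898-164778822) lie on chromosome 2. Fbxo5 (chr10:5799160-5805600) and Fzr1 (chr10:81366222-81378516) lie on chromosome 10. The others are Cdc20 (chr4:118432901-118437352), Mad2l1 (chr6:66535390-66547220), Ttk (chr9:83834689-83872389), Pttg1 (chr11:43420250-43426251) and Espl1 (chr15:102296266-102324357).

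After filtering, 3683 RO-3066 cells with 164263858 UMIs (unique molecular identifiers, each counted as 1 captured transcript) and 5833 DMSO cells with 174598446 UMIs were kept, with a median of 34828 UMIs per RO-3066 cell and 23972 per DMSO cell. The libraries shared 7 cell barcodes, 5 of them among kept cells. Cells with Pf4 at 1% of their UMIs or more were called Pf4-high, which gave 259 RO-3066 and 449 DMSO cells with median depths of 90526 and 59182 UMIs. Of the others, cells with at least 50000 UMIs were called other large (866 RO-3066 and 192 DMSO cells, medians 69121.5 and 68326 UMIs). The remaining cells numbered 2558 in RO-3066 and 5192 in DMSO (medians 27269.5 and 22999 UMIs). Just under the Pf4 limit, at 0.9 to 1%, were 43 RO-3066 and 70 DMSO cells, and just over it, at 1 to 1.1%, were 37 and 45. Of the hematopoietic stem cell markers, 8 of 11 in RO-3066 and 9 of 11 in DMSO reached 20 CPM (UMIs of a gene scaled to a common library total), with summed levels of 611.0 and 540.4 CPM, while Procr was at 4.22 and 4.54 CPM. Of the megakaryocyte markers, 8 of 10 in RO-3066 and 7 of 10 in DMSO reached that level. Their sums were 4859 and 5497 CPM. Pf4-high cells also carried more of the platelet integrin gene Itga2b than remaining cells, with 573 against 117 CPM in RO-3066 and 432 against 93.0 CPM in DMSO. Erythroid markers summed to 464 CPM in RO-3066 and 210 CPM in DMSO, with 1 of 6 at 20 CPM in both, and those of neutrophils and monocytes to 141 CPM in both, with 2 of 8. Lymphoid and mast cell lists had 0 markers at 20 CPM in both libraries, with Cd3e and Il7r at 0.

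Over all kept cells, the level of Fbxo5 was the member furthest from equality between the libraries, at 0.624 times the DMSO level. Levels are CPM of UMIs summed over cells, folds are RO-3066 over DMSO, and the intervals beside them are 95% intervals of counting error only. Among the 9 members with at least 20 CPM in either library, 1 (Fbxo5) was at least 1.5-fold lower and 0 were at least 1.5-fold higher in RO-3066. Of all 5756 genes at that level, 2.43% were lower and 3.7% were higher by as much. The median log2 ratio was −0.13 over the 9 members and −0.06 over all those genes. Espl1 was under 20 CPM in both libraries and was left out of these counts.

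In Pf4-high cells 3 of 9 members (Bub1b, Ttk and Fbxo5) were at least 1.5-fold lower in RO-3066, beside 7.87% of all genes measured there, and 0 were higher, beside 7.61%. In other large cells 1 of 9 (Fbxo5) was lower, beside 5.19% of genes, and 0 were higher, beside 5.98%. In remaining cells 1 of 9 (Fbxo5) was lower, beside 2.09%, and 0 were higher, beside 3.26%. The median member log2 ratio was −0.32 in Pf4-high, −0.19 in other large and −0.11 in remaining cells, and that of all genes measured was −0.12, −0.11 and −0.03. Scaling by median ratios instead of totals brought the median of all genes to 0.00 in Pf4-high and other large cells, so folds in these classes can be read against a shift of about that size. A fold of Fbxo5 in Pf4-high cells then no longer reached 1.5, at a log2 ratio of −0.53, and that in remaining cells was −0.56.

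**Figure D1:**
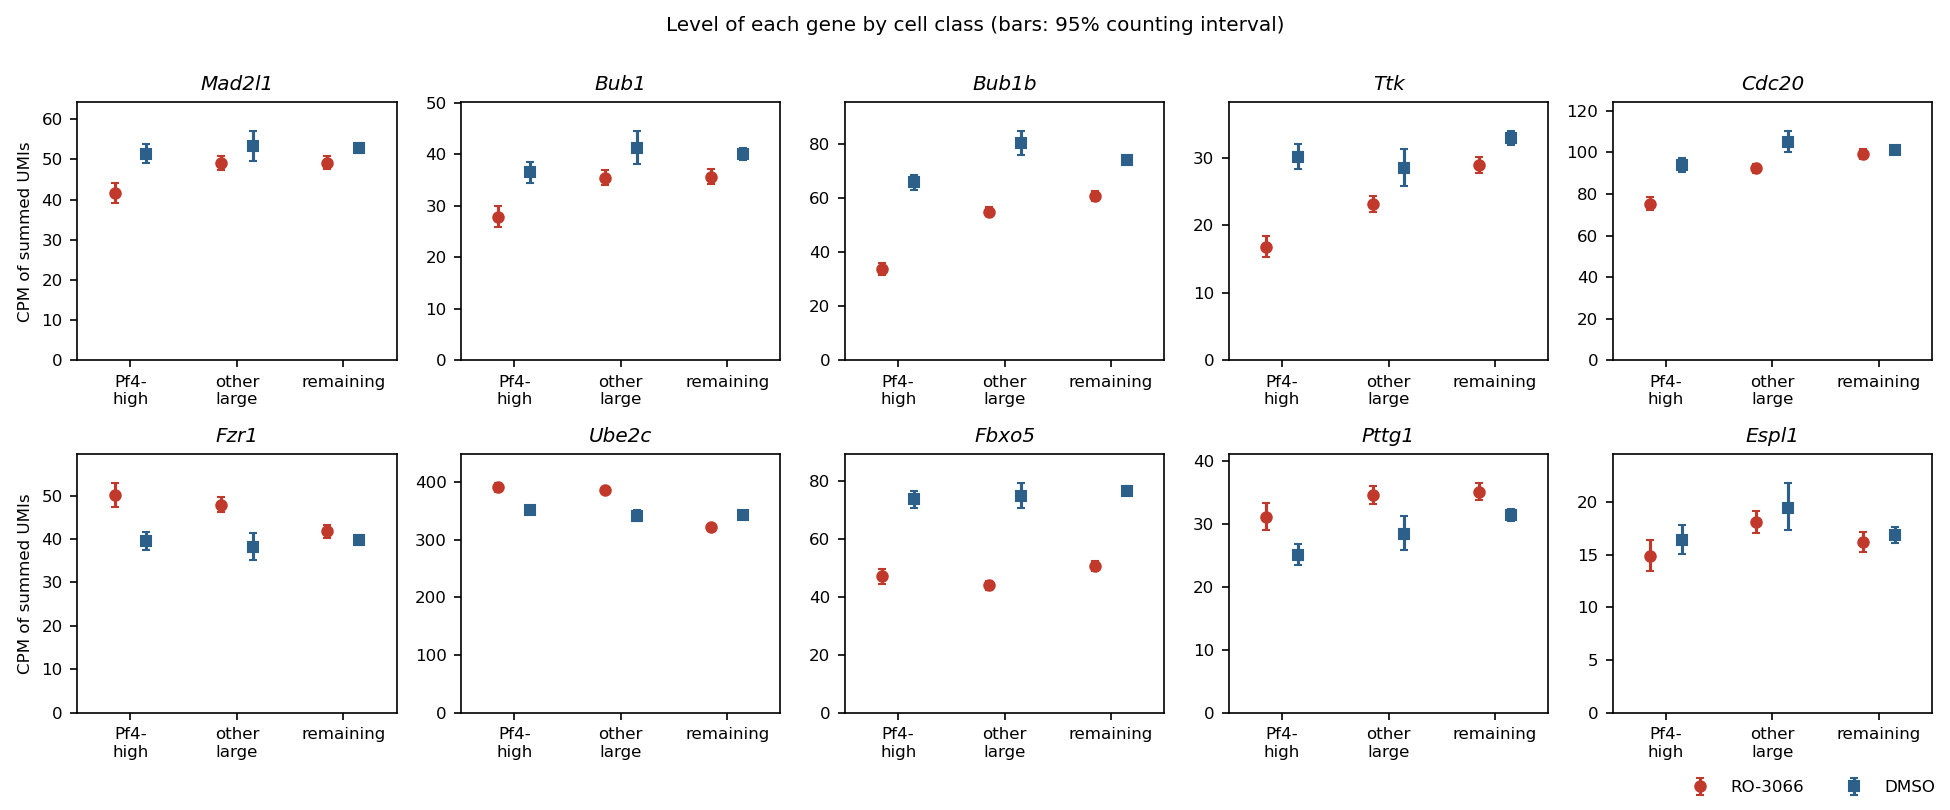
Level of each of the 10 genes (CPM of summed UMIs, bars are 95% counting intervals) in Pf4-high, other large and remaining cells, RO-3066 left of DMSO. Fbxo5 is lower in RO-3066 in every class, while Bub1b and Ttk are farthest from DMSO in Pf4-high cells.

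**Figure D2:**
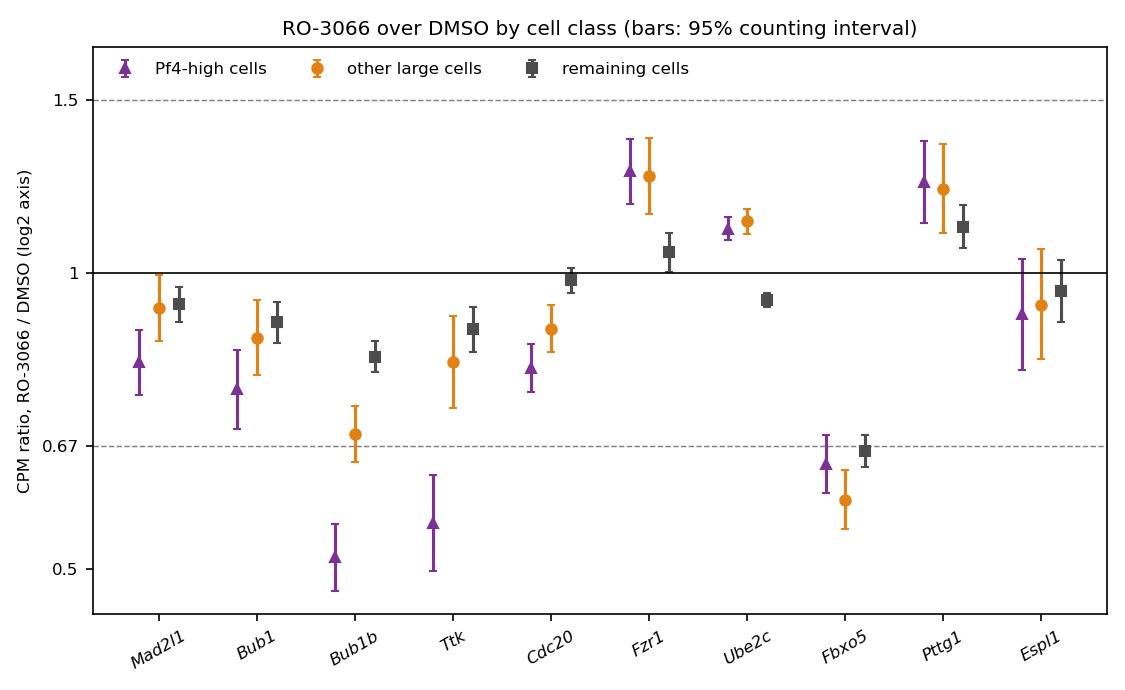
CPM ratio RO-3066 over DMSO for each gene and cell class on a log2 axis, with 95% counting intervals, where dashed lines mark 1.5-fold up and down. Bub1b and Ttk in Pf4-high cells and Fbxo5 in all 3 classes lie past the lower line.

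Bub1b was lower in RO-3066 in every class, and so were Ttk, Bub1 and Mad2l1, except that these 3 turned to above DMSO in remaining cells when each cell had the same weight. The gap in Bub1b and Ttk was widest in Pf4-high cells. Bub1b encodes BubR1, which binds Cdc20 and is part of the inhibitory complex. It stood at 33.8 CPM in RO-3066 and 65.8 CPM in DMSO Pf4-high cells, a fold of 0.514 (0.475 to 0.556). In other large cells it was at 55.0 CPM in RO-3066 and 80.1 CPM in DMSO, a fold of 0.686 (0.643 to 0.732), and in remaining cells at 60.8 and 73.9 CPM, a fold of 0.823 (0.793 to 0.853). The intervals of the folds do not overlap between the 3 classes. The difference between classes itself was not tested.

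Ttk encodes Mps1, the kinase that starts checkpoint signalling at unattached kinetochores. It was at 16.8 CPM in RO-3066 and 30.1 CPM in DMSO Pf4-high cells, a fold of 0.557 (0.497 to 0.623). Its fold was 0.812 (0.730 to 0.905) in other large cells, at 23.1 CPM in RO-3066 and 28.5 CPM in DMSO, and 0.877 (0.832 to 0.925) in remaining cells, at 28.9 and 33.0 CPM. Ttk turned to slightly above DMSO in other large cells when cells were thinned to 10000 UMIs (log2 ratio 0.09) and in remaining cells when each cell had the same weight (0.04). In Pf4-high cells Bub1b and Ttk were below DMSO under every alternative tried, with log2 ratios of −1.24 to −0.78 and −0.85 to −0.58.

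Bub1, a kinase that recruits other checkpoint proteins and marks the inner centromere, was at 27.8 CPM in RO-3066 and 36.5 CPM in DMSO Pf4-high cells, a fold of 0.762 (0.695 to 0.835). In remaining cells its fold was 0.891 (0.850 to 0.935), from 35.7 CPM in RO-3066 and 40.1 CPM in DMSO. Mad2l1, which encodes Mad2, was at 41.7 CPM in RO-3066 and 51.3 CPM in DMSO Pf4-high cells, a fold of 0.812 (0.752 to 0.876), and its fold was 0.930 (0.892 to 0.969) in remaining cells. No fold of these 2 genes reached 1.5 in any class, and Mad2l1 in remaining cells also turned when phases had equal weight.

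Within the RO-3066 library, Bub1b and Ttk were also lower in Pf4-high than in remaining cells, by folds of 0.556 (0.517 to 0.598) and 0.580 (0.523 to 0.643). They were 2 of 9 members at least 1.5-fold lower, beside 12.8% of all genes in that comparison, so the share of members was near the background, and 0 were higher, beside 11.8%. Within DMSO the same folds were 0.890 (0.849 to 0.932) for Bub1b and 0.914 for Ttk, and 0 of 9 members were 1.5-fold lower, beside 8.46% of genes, or higher, beside 9.72%. Between other large and remaining cells 0 members passed 1.5-fold in either direction in RO-3066 (3.74% of genes lower, 4.82% higher) or in DMSO (4.82% lower, 6.04% higher).

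Other G2 and M genes were also lower in RO-3066 Pf4-high cells. Of the 45 measured genes of a list of 50 such genes that holds no member, 14 were at least 1.5-fold lower and 0 higher. The shares over all genes measured there were 7.87% lower and 7.61% higher. The median log2 ratio of the list was −0.37, against −0.12 for all those genes. Mki67, a marker of cycling cells, was at 221 CPM in RO-3066 and 398 CPM in DMSO Pf4-high cells, and Top2a at 302 and 514 CPM. After thinning to 10000 UMIs, the list summed to a median of 72 UMIs in RO-3066 and 93.5 UMIs in DMSO Pf4-high cells. In remaining cells the medians were 77 and 83 UMIs, and Mki67 was at 345 CPM in RO-3066 and 328 CPM in DMSO. By phase call, scored from genes other than the members, the lower levels of Bub1b and Ttk in Pf4-high cells were seen in cells called G2 or M and not in cells called S. Among Pf4-high cells called G2 or M (191 in RO-3066 and 297 in DMSO), Bub1b was at 35.9 CPM in RO-3066 and 83.6 CPM in DMSO, a fold of 0.429 (0.393 to 0.468), and Ttk at 17.0 and 37.2 CPM, a fold of 0.456 (0.401 to 0.518). Among those called S (56 in RO-3066 and 141 in DMSO), Bub1b was at 28.6 CPM in RO-3066 and 27.4 CPM in DMSO, a fold of 1.04 (0.857 to 1.27), and Ttk at 18.1 and 15.2 CPM, a fold of 1.19 (0.924 to 1.53). The difference between the calls, and the part of depth, were not tested.

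The 2 activators differed from each other. Cdc20, which activates the complex in mitosis and is held by the checkpoint, was at 75.3 CPM in RO-3066 and 94.0 CPM in DMSO Pf4-high cells, a fold of 0.802 (0.758 to 0.848). It was at 92.3 CPM in RO-3066 and 105 CPM in DMSO other large cells, a fold of 0.878 (0.831 to 0.929), and at 99.3 and 101 CPM in remaining cells, a fold of 0.984 (0.955 to 1.01), where its direction changed with the processing. Fzr1, the activator of late mitosis and G1, was instead higher in RO-3066, short of 1.5-fold. It stood at 50.1 CPM in RO-3066 and 39.4 CPM in DMSO Pf4-high cells, a fold of 1.27 (1.18 to 1.37), at 47.9 and 38.2 CPM in other large cells, a fold of 1.26 (1.15 to 1.37), and at 41.8 and 39.8 CPM in remaining cells, a fold of 1.05 with an interval from about 1 to 1.10. Over all kept cells Fzr1 was above DMSO under all 8 alternatives compared, with log2 ratios of 0.07 to 0.38.

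Ube2c, the ubiquitin-conjugating enzyme that places the first ubiquitins on substrates of the complex, was slightly above DMSO in large cells and below it in the rest. It was at 391 CPM in RO-3066 and 352 CPM in DMSO Pf4-high cells, a fold of 1.11 (1.08 to 1.14), and at 386 and 342 CPM in other large cells, a fold of 1.13 (1.10 to 1.16). In remaining cells it was at 322 CPM in RO-3066 and 343 CPM in DMSO, a fold of 0.939 (0.924 to 0.954). Its direction in other large cells turned when the Pf4 limit was 0.5% or the size limit 40000 UMIs, and in remaining cells when each cell had the same weight or was thinned.

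Fbxo5, which encodes the inhibitor Emi1, was lower in RO-3066 in every class. It was at 47.2 CPM in RO-3066 and 73.8 CPM in DMSO Pf4-high cells, a fold of 0.639 (0.597 to 0.684). In other large cells it was at 44.1 CPM in RO-3066 and 75.0 CPM in DMSO, a fold of 0.588 (0.549 to 0.630), and in remaining cells at 50.6 and 76.8 CPM, a fold of 0.659 (0.634 to 0.685). Over all kept cells this came to 47.4 CPM in RO-3066 (7790 UMIs) and 76.0 CPM in DMSO (13278 UMIs), a fold of 0.624 (0.606 to 0.641). The log2 ratio over all kept cells was −0.77 to −0.54 across the alternatives, and so on either side of 1.5-fold. In RO-3066 and DMSO cells of 15000 to 40000 UMIs it was −0.77.

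Pttg1 encodes securin, which holds separase inactive until the complex marks it. It was at 31.1 CPM in RO-3066 and 25.1 CPM in DMSO Pf4-high cells, a fold of 1.24 (1.13 to 1.36), which turned to slightly below DMSO after thinning. In other large cells it was at 34.6 CPM in RO-3066 and 28.4 CPM in DMSO, a fold of 1.22 (1.10 to 1.35), and in remaining cells at 35.1 and 31.4 CPM, a fold of 1.12 (1.06 to 1.17). Espl1, which encodes separase, was at 16.8 CPM in RO-3066 (2753 UMIs) and 17.0 CPM in DMSO (2971 UMIs), a fold of 0.985 (0.935 to 1.04). The interval of Espl1 included equality in every class.

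The share of cells with Ube2c differed more between the libraries than its level did. Because RO-3066 cells were deeper, each cell was thinned to 10000 UMIs before shares were taken, which left out 124 RO-3066 and 83 DMSO cells. Ube2c was then detected in 83.0% of RO-3066 cells (81.8 to 84.2%) and 59.0% of DMSO cells (57.7 to 60.3%), and without thinning in 89.7% and 72.5%. In Pf4-high cells the thinned shares were 95.7% in RO-3066 (92.4 to 97.8%) and 71.2% in DMSO (66.7 to 75.3%), in other large cells 94.3% and 67.2%, and in remaining cells 77.7% and 57.6%. As a background, 140 RO-3066 and 529 DMSO cells with at most 1 UMI over 8 other proliferation genes were used, with median depths of 23900.5 and 16981 UMIs. Ube2c was detected in 25.7% of these in RO-3066 and 18.7% in DMSO, well under the shares in the classes.

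The UMIs of Ube2c were also spread differently over cells. After thinning, the mean was 3.54 UMIs per cell in RO-3066 and 2.94 in DMSO, and the variance divided by the mean was 3.04 and 5.80. Cells with no Ube2c UMI were 17.0% of RO-3066 and 41.0% of DMSO cells, those with 3 to 4 UMIs were 24.6% and 9.67%, and those with 15 or more were 0.731% and 2.24%. The RO-3066 cells thus lay more in the middle of the range and the DMSO cells more at both ends. Cdc20 had a ratio of variance to mean of 1.35 in RO-3066 and 1.63 in DMSO.

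**Figure D3:**
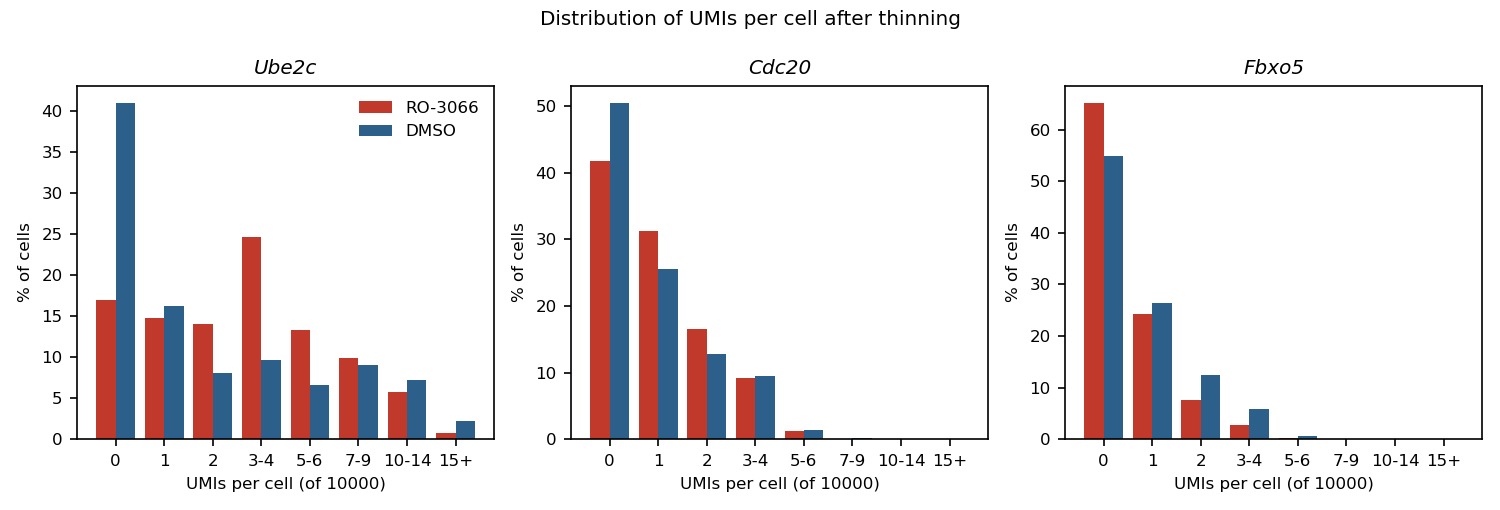
Percent of cells (y axis) by UMIs of Ube2c, Cdc20 or Fbxo5 after thinning each cell to 10000 UMIs (x axis), RO-3066 left of DMSO. Ube2c is missing from 17.0% of RO-3066 cells and 41.0% of DMSO cells, and the bars at 3 to 4 UMIs are 24.6% and 9.67%.

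Over all kept cells Cdc20 and Fzr1 were detected in more RO-3066 cells and Fbxo5 in fewer. Thinned shares of Cdc20 were 58.2% in RO-3066 (56.6 to 59.8%) and 49.5% in DMSO (48.2 to 50.8%), beside 17.1% and 18.1% in low-proliferation cells, and the unthinned shares were 85.3% and 69.98%. In Pf4-high cells Cdc20 did not follow this, with thinned shares of 50.8% in RO-3066 (44.5 to 57.1%) and 53.8% in DMSO (49.1 to 58.5%), and the gap was in remaining cells, at 59.4% and 48.9%. Fzr1 was detected in 35.8% of RO-3066 cells (34.2 to 37.4%) and 27.0% of DMSO cells (25.8 to 28.1%), beside 17.9% and 14.4% in low-proliferation cells, with 71.5% and 53.3% unthinned. Fbxo5 was detected in 34.8% of RO-3066 cells (33.2 to 36.3%) and 45.1% of DMSO cells (43.8 to 46.4%), beside 12.9% and 14.9% in low-proliferation cells, and its unthinned shares were 69.2% and 67.9%. The order of the Fbxo5 shares thus turned when depth was not made equal.

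Bub1b was detected in 23.4% of RO-3066 (18.4 to 29.1%) and 42.3% of DMSO (37.7 to 47.1%) Pf4-high cells, with unthinned shares of 86.9% and 88.6%, while over all kept cells its shares were 42.0% and 43.1%. Low-proliferation cells had it in 10.7% in RO-3066 and 10.6% in DMSO. Ttk was detected in 15.2% of RO-3066 and 23.4% of DMSO Pf4-high cells, beside 4.29% and 5.29% in low-proliferation cells. Over all kept cells Bub1 was detected in 29.2% of RO-3066 and 28.9% of DMSO cells after thinning, Mad2l1 in 37.8% of RO-3066 and 39.1% of DMSO cells, and Espl1 in 14.4% of RO-3066 and 13.7% of DMSO cells. Pttg1 was detected in 29.5% of RO-3066 and 26.3% of DMSO cells, but also in 27.9% and 29.9% of low-proliferation cells, so its share in the kept cells was about that of this background and no difference is read from it.

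**Figure D4:**
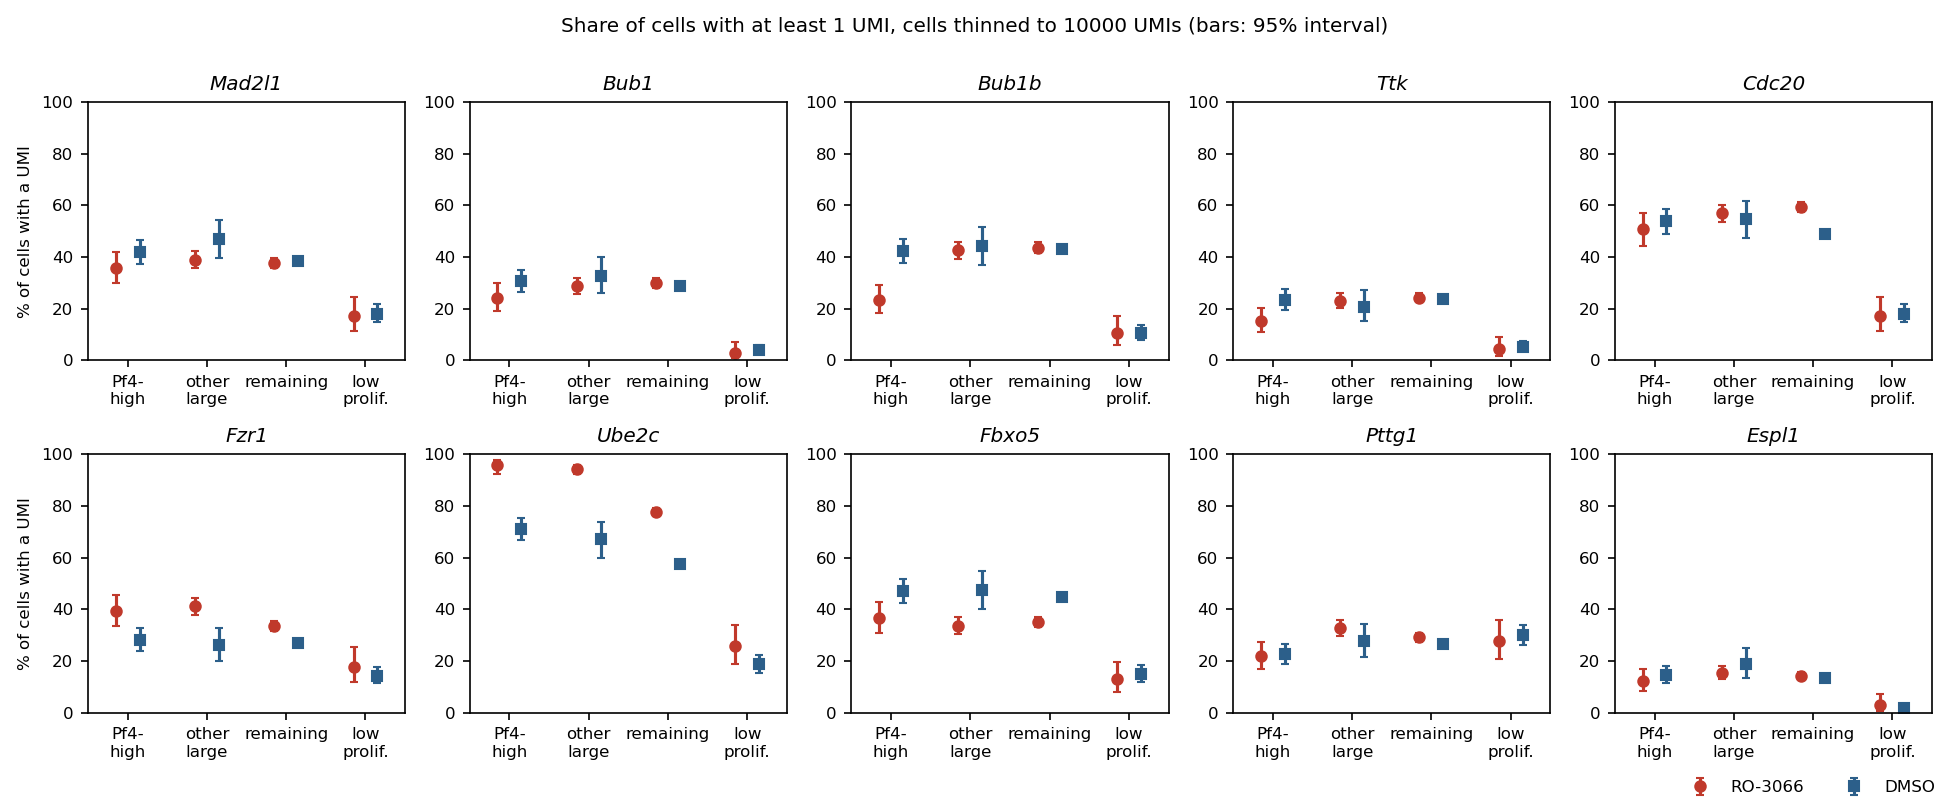
Percent of cells with at least 1 UMI after thinning to 10000 UMIs (bars are 95% exact intervals) in Pf4-high, other large, remaining and low-proliferation (low prolif.) cells, RO-3066 left of DMSO. Ube2c reaches 95.7% of RO-3066 Pf4-high cells and 71.2% of DMSO ones, Bub1b 23.4% and 42.3%, and Pttg1 is as frequent in low-proliferation cells as elsewhere.

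The members were next compared within phase calls, scored on thinned cells from 43 S phase and 50 G2 and M genes with the members left out. These 50 are the other G2 and M genes counted below. Their counts within a phase call are therefore not independent of the call. In RO-3066 138 cells were called G1, 841 S and 2580 G2 or M, and in DMSO 312, 2254 and 3184. Within S-called cells the median of the summed other G2 and M genes was 54 UMIs in both libraries, and within G2 or M cells it was 86 in RO-3066 and 119 in DMSO. Median depths of S-called cells were 34857 and 21408.5 UMIs. A phase call describes RNA only and does not show division.

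In S-called cells Ube2c, Fzr1 and Cdc20, 3 of the 9 measured members, reached 1.5-fold above DMSO, beside 4.24% of all genes, and 1 (Fbxo5) lower, beside 2.69%. Of the 42 other G2 and M genes measured there, 7 were higher and 1 lower by as much. Ube2c was at 199 CPM in RO-3066 and 36.5 CPM in DMSO, a fold of 5.45 (5.20 to 5.72). Fzr1 was at 35.4 CPM in RO-3066 and 18.1 CPM in DMSO, a fold of 1.96 (1.81 to 2.13), and Cdc20 at 55.8 and 33.0 CPM, a fold of 1.69 (1.59 to 1.80). In remaining cells alone these folds were smaller: Ube2c was at 98.6 CPM in RO-3066 and 33.1 CPM in DMSO, a fold of 2.98 (2.78 to 3.19), Fzr1 had a fold of 1.41 (1.26 to 1.58) and Cdc20 of 1.27 (1.16 to 1.38). In Pf4-high S-called cells, 56 in RO-3066 and 141 in DMSO, Ube2c stood at 338 and 44.0 CPM.

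In G2 or M cells Bub1b, Fbxo5 and Ttk, 3 of 10 members, were at least 1.5-fold below DMSO, beside 2.96% of all genes, and 0 higher, beside 4.52%. Bub1b was at 60.6 CPM in RO-3066 and 98.5 CPM in DMSO, Ttk at 26.4 and 41.6 CPM, and Ube2c at 418 and 531 CPM. Of the other G2 and M genes, 15 of 48 were lower by as much. In G2 or M cells over S-called cells of the same library, 3 of 9 members were 1.5-fold up in RO-3066, beside 0.993% of genes, and 7 of 10 in DMSO, beside 2.58%, while 0 were 1.5-fold down, beside 0.266% and 1.85%. The fold of Ube2c between these calls was 2.10 (2.05 to 2.15) in RO-3066 and 14.5 (13.9 to 15.2) in DMSO, and that of Cdc20 was 1.90 and 4.26. In remaining cells alone the log2 ratio of Ube2c between the calls was 2.12 in RO-3066 and 4.04 in DMSO. Over all kept cells the fold of Fbxo5 between the calls was 0.923 in RO-3066 and 0.947 in DMSO, and that of Pttg1 was 1.16 and 1.15. In remaining cells alone the log2 ratio of Fbxo5 was −0.19 in RO-3066 and turned to 0.05 in DMSO.

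The libraries were also compared at matched levels of the other G2 and M genes. Cells were put in 5 bins by the summed thinned UMIs of these genes, with limits at 48, 71, 101 and 130 UMIs taken from DMSO cells so that each bin held about equal numbers of them. RO-3066 cells numbered 435, 1179, 972, 562 and 411 from bin 1 to bin 5. From bin 1 to bin 5 the median depths were 27219, 44798, 43172, 24821.5 and 21725 UMIs in RO-3066, against 17832, 22749, 24905, 28681 and 29801 UMIs in DMSO. RO-3066 cells were thus deeper in bins 1 to 3 and shallower in bins 4 and 5.

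In the lower bins Ube2c, Fzr1 and Cdc20 were higher in RO-3066, and in bins 4 and 5 all members were within 1.5-fold of DMSO. In bin 1, 4 of 7 measured members (Ube2c, Cdc20, Bub1b and Fzr1) were at least 1.5-fold higher, beside 2.55% of genes, in bin 2, 3 of 8, beside 6.78%, and in bin 3, 2 of 9, beside 6.9%. In bins 4 and 5, 0 of 10 were higher, beside 3.59% and 3.46%, and 0 lower, beside 1.8% and 1.82%. In the lower direction, 0 of 7 members passed in bin 1, beside 2.9%, and Fbxo5 alone passed in bin 2, beside 5.44%, and in bin 3, beside 3.1%. Of the other G2 and M genes themselves, 10 of 36 were at least 1.5-fold higher in RO-3066 in bin 1 and 1 lower. In bin 2 the counts were 16 of 42 and 2, and in bin 3 they were 7 of 46 and 1. These counts arose although the sum of these genes was matched.

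Ube2c was at 127, 293, 367, 559 and 662 CPM in RO-3066 from bin 1 to bin 5, against 22.0, 44.0, 154, 514 and 808 CPM in DMSO. The fold was 5.77 in bin 1, 6.66 in bin 2 and 2.38 in bin 3, and 1.09 and 0.819 above. Ube2c thus spanned a narrower range of levels over the bins in RO-3066. In remaining cells alone the folds in the same order were 3.07, 5.67, 2.30, 0.958 and 0.793. Median depths of remaining cells in bin 2 were 34231 UMIs in RO-3066 and 22120 in DMSO. Depth moved with the folds of Ube2c over the bins, and its part in them was not tested.

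Fzr1 was at 27.2, 44.0, 47.0, 53.8 and 58.2 CPM in RO-3066 over the bins, against 17.1, 18.2, 24.4, 50.8 and 74.3 CPM in DMSO. Cdc20 had folds of 2.10 in bin 1 and 1.82 in bin 2, and of 0.938 to 1.11 in the upper 3 bins. Both genes, like Ube2c, were above DMSO in bins 1 and 2 and below it in bin 5.

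At matched levels of the other genes Bub1b and Ttk were not lower in every bin. The folds of Bub1b from bin 1 to bin 5 were 1.60 (1.36 to 1.87), 1.11, 0.852, 0.953 and 0.876 (0.824 to 0.930). Those of Ttk were 1.28 (1.03 to 1.58), 1.04, 0.840, 0.916 and 1.05. Bub1b was thus above DMSO in bins 1 and 2, although it was below DMSO in each of the 3 classes.

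Fbxo5 went the other way. It was at 26.8, 37.3, 47.8, 72.7 and 85.7 CPM in RO-3066 from bin 1 to bin 5, against 37.4, 86.9, 81.2, 76.6 and 84.3 CPM in DMSO. Its fold was 0.429 (0.407 to 0.453) in bin 2, 0.588 (0.558 to 0.620) in bin 3 and 1.02 (0.947 to 1.09) in bin 5. In DMSO its level was about flat from bin 2 up, and in RO-3066 it climbed through all 5 bins. In remaining cells alone the folds of bins 2 and 3 were 0.441 and 0.638. Pttg1 ran from 32.8 CPM in bin 1 to 36.7 CPM in bin 5 in RO-3066, against 28.0 and 33.3 CPM in DMSO, and so moved little with the other genes.

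**Figure D5:**
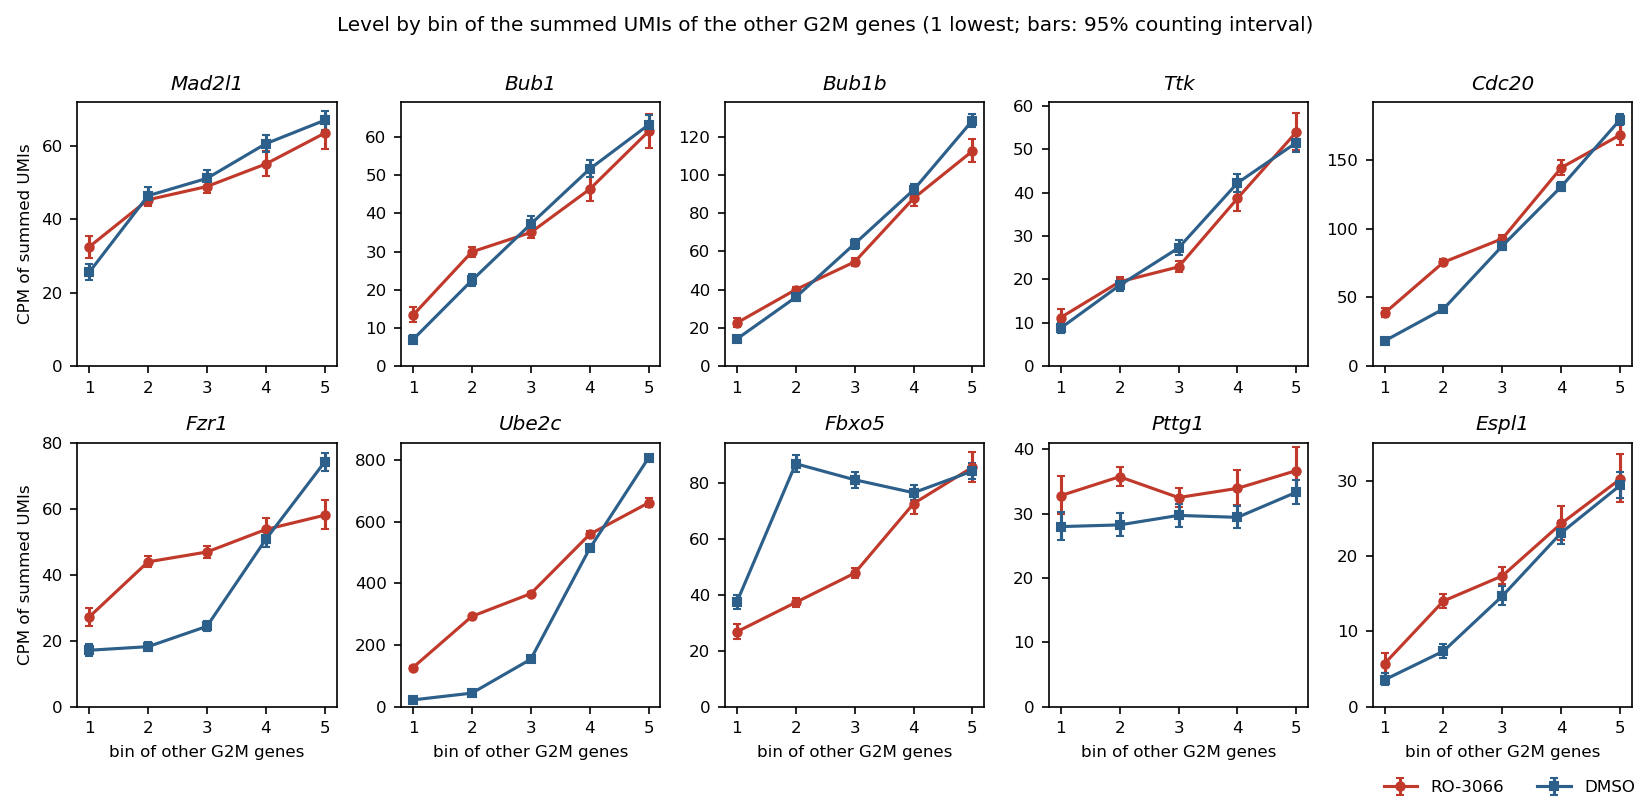
Level of each gene (CPM of summed UMIs, bars are 95% counting intervals) in 5 bins of the summed other G2 and M genes, RO-3066 in red circles and DMSO in blue squares. In bin 2 Ube2c is at 293 CPM in RO-3066 and 44.0 CPM in DMSO, and Fbxo5 at 37.3 and 86.9 CPM, while both pairs are closer in bins 4 and 5.

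Of the other genes of the pathway, 1 passed 1.5-fold over all kept cells, and it was lower. Of all genes measured there, 2.43% were lower and 3.7% were higher by as much. The share of lower pathway genes was thus near the background. Of 10 other checkpoint genes, 8 were measured (Kntc1 and Zw10 were under 20 CPM), and 0 passed 1.5-fold, with a median log2 ratio of −0.11. The 15 subunits of the complex and its other ubiquitin-conjugating enzyme gave 0 in either direction and a median of −0.11, and 10 cohesin genes and protectors 0 and −0.09. Of 7 substrates, 1 was lower and the median was 0.03. That substrate was Plk1, the kinase that drives mitotic entry, at 50.3 CPM in RO-3066 and 86.1 CPM in DMSO, a fold of 0.584 (0.568 to 0.599). The next lowest were Anapc15, a subunit that helps release checkpoint-bound Cdc20, at 50.7 and 74.4 CPM, a fold of 0.681 (0.663 to 0.700), and the cyclin A gene Ccna2 at 76.3 and 109 CPM, a fold of 0.699. The highest ratios were those of Mad2l1bp, which encodes a partner of Mad2 in silencing the checkpoint, with 24.1 CPM in RO-3066 and 17.2 CPM in DMSO, a fold of 1.41 (1.34 to 1.47), of Anapc16, a subunit of the complex, at 1.13, and of Bub3, which binds Bub1 and BubR1, at 1.12. The cyclin B gene Ccnb1 was at 105 CPM in RO-3066 and 100 CPM in DMSO, and Gmnn, which encodes geminin, at 196 and 185 CPM.

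Across cells, members varied together weakly, and less so in RO-3066. Pearson's r of log(1 + UMIs) in thinned cells had a median of 0.0531 over the 45 member pairs in RO-3066 (3559 cells) and 0.0890 in DMSO (5750 cells). These counts are sparse, the pairs share cells and library, and no p is given. The highest pair was Cdc20 and Ube2c, with r of 0.386 in RO-3066 and 0.506 in DMSO. For each member the 3 genes with the highest r in DMSO were taken. For Ube2c these were Cenpf, Nusap1 and Prc1, with r of 0.493, 0.395 and 0.427 in RO-3066 against 0.701, 0.660 and 0.617 in DMSO. For Fbxo5 they were the histone genes Hist1h1b, Hist1h2ap and Hist1h2ae, with r of 0.327, 0.307 and 0.279 in RO-3066 against 0.432, 0.392 and 0.379 in DMSO. For Cdc20 they were Ube2c, Cenpa and Cenpf, for Bub1b Cenpf, Mki67 and Tpx2, for Fzr1 Ube2c, Cenpf and Nusap1, for Bub1 Cenpf, Mki67 and Hmmr, for Ttk Top2a, Nusap1 and Prc1, for Mad2l1 Hmgb2, Cdca8 and Top2a, and for Espl1 Ube2c, Top2a and Cenpf. Pttg1 had no close match, its highest r being 0.0438 in RO-3066 and 0.0988 in DMSO, with Cenpa.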

How the data were processed

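Each library is a 10x Genomics 3′ library per the labels' protocols. The authors deposited raw UMI counts for every gene and barcode. Cell Ranger 5.0.1 and build mm10 stand in the submitters' processing notes and Cell Ranger 7.1.0 in the file headers. Which made the counts, and whether intron reads were counted, is not given in the sources used here.

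Barcodes with at least 1000 UMIs, 500 genes and at most 10% mitochondrial UMIs were kept (84 RO-3066 and 26 DMSO barcodes left out). Likely doublets were removed by counting simulated doublets among 50 nearest neighbours, at 0.8% per 1000 barcodes (115 RO-3066 and 301 DMSO). UMIs were summed per library and cell class and divided by the total. No test was possible with single libraries, and a call means at least 1.5-fold among genes with at least 20 CPM in either group. Fold intervals are exact conditional Poisson and share intervals exact Clopper-Pearson intervals at 95%, and cover counting error only. Phases were scored with scanpy 1.11.5, on Python 3.11.15 and scipy 1.17.1. The calculation was tested on simulated data. The promoter windows came from RefSeq, with 10 of 10 members matched.

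The members and lists were chosen with earlier results of these data known. All 10 members are named, and of 42 other pathway genes the 3 highest and 3 lowest ratios with Ccnb1, Ccna2 and Gmnn. Alternatives were scaling by median ratios, thinning, equal weight for each cell or phase, no doublet removal, no barcode filter, a mitochondrial limit of 5%, other class limits, fold 2 and other expression minimums. Cells of 15000 to 40000 UMIs, and phases with doublets kept or in remaining cells only, were added after the data were seen.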

Additional observations from a re-analysis of the deposited data

Results flagged for a closer look

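Ube2c lay on opposite sides of DMSO by cell class, with folds RO-3066 over DMSO of 1.11 in Pf4-high and 1.13 in other large cells, against 0.939 in remaining cells, in intervals that leave out 1. These sides depended on the processing. The fold in remaining cells turned to above DMSO when each cell had the same weight or was thinned. That in other large cells turned to below DMSO at a Pf4 limit of 0.5% or a size limit of 40000 UMIs. In Pf4-high cells Ube2c stayed above DMSO under all 11 alternatives. The difference between classes was not tested, since there was 1 library per treatment.

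In 7 members the fold RO-3066 over DMSO was above 1 in S-called cells and below 1 in cells called G2 or M, with both 95% counting intervals leaving out 1. Mad2l1 had folds on the same sides, 1.05 and 0.824, but its interval in S-called cells (0.987 to 1.12) included 1. The folds of the 7 in S-called and G2 or M cells were 5.45 and 0.787 for Ube2c, 1.96 and 0.942 for Fzr1, 1.75 and 0.793 for Espl1, 1.69 and 0.753 for Cdc20, 1.34 and 0.720 for Bub1, 1.18 and 0.635 for Ttk, and 1.18 and 0.615 for Bub1b. These differences were not tested, and the same joint count over all genes was not made. By the S call alone, 2459 of all 5727 genes measured were above DMSO. In G2 or M cells 3365 of 5780 genes were below it, so most genes lay on that side there. The other G2 and M genes leaned the same way as the 7 members. The phase calls were scored from these same genes, so this lean is not independent of the calls. In S-called cells 34 of 42 measured were above DMSO and 8 below, and in G2 or M cells 43 of 48 were below and 5 above. Fbxo5 was below DMSO in both calls, at 0.631 in S-called and 0.615 in G2 or M cells.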

How the results depend on the processing

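Of the counts and medians compared, none passed its limit with a mitochondrial limit of 5%, doublets kept, all barcodes or a Pf4 limit of 2%. The same held for a size limit of 40000 UMIs, a minimum of 5 CPM or none, and cells of 15000 to 40000 UMIs. Counts were held to 1.5 times those reported, and medians to an interval set by the spread of the members. That interval was wide, at log2 ratios of −0.43 to 0.19 over all kept cells, so it is a loose check of the medians. The 1 member at least 1.5-fold lower over all kept cells, Fbxo5, became 0 with equal weight per cell, thinned cells or phases at equal weight. In remaining cells the count of 1 became 0 under these and under median-ratio scaling. Where the call was 2-fold, the lower count was 0 over all kept cells, in Pf4-high (reported: 3), other large and remaining cells. With a minimum of 100 CPM it was also 0 in these sets. There Bub1b, Ttk and Fbxo5 were under 100 CPM in both libraries and could not be counted, so that 0 says nothing about their folds. In other large cells the lower count was 2 with a Pf4 limit of 0.5% or a size limit of 60000 UMIs. With phases at equal weight, 1 member (Fzr1) was 1.5-fold higher in Pf4-high cells, against 0 reported. Within RO-3066, the 2 members lower in Pf4-high than remaining cells became 0 at 2-fold.

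Shares changed with the thinning depth. Members whose share interval lay above that of DMSO numbered 4 over all kept, 2 in Pf4-high, 2 in other large and 3 in remaining cells, and 1 lay below in each. The same was not counted over all genes. These numbers therefore have no background and show only how the shares moved with the thinning. Cells with fewer UMIs than the thinning depth were left out, so the set of cells changed with that depth too. The parts of depth and of the cell set were not told apart. Thinned to 5000 UMIs, 1 lay above in Pf4-high and in other large cells and 3 below in Pf4-high cells. Thinned to 20000 UMIs, 1 lay above in other large cells, and 6 below over all kept and in remaining cells. Without thinning, 9 lay above over all kept and in remaining cells and 6 in Pf4-high cells, and 0 below over all kept, in Pf4-high and in other large cells. Within DMSO, the median member log2 ratio to remaining cells was 0.028 in Pf4-high cells after thinning, against −0.10, and 0.11 in other large cells, against −0.00. For all of these the cause was not tested. No paired analysis was possible because there was 1 library per treatment.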
